A study of Mus musculus with 10 samples.

Results

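Open chromatin regions that were found in both vehicle libraries and in exactly 1 of the 2 extract libraries were examined in mouse dendritic cells, and are called one-library regions here. Peak intervals of the 4 ATAC-seq libraries were merged wherever they overlapped by at least 1 bp, which gave 24542 regions. Of these, 1981 (8.07%) met the rule, and 942 of them had their extract peak in replicate 1 and 1039 in replicate 2. They stand between 12033 shared regions, with a peak in all 4 libraries, and 1460 vehicle-only regions, with a peak in both vehicle libraries and in neither extract library. The regions were chosen by the presence of called peaks in these 4 libraries, so all peak values are given as a description and were not tested.

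The cells were bone marrow-derived dendritic cells, antigen-presenting cells grown in culture from the marrow of wild-type female C57BL/6 mice aged 8 to 10 weeks. All groups were grown for 7 days with GM-CSF at 20 ng/mL, and the non-adherent immature cells taken on day 6 received either 0.04% DMSO, the vehicle, or AMLE (apple mango leaf extract) at a dose of 400 µg/mL, for 24 h. Open chromatin was mapped in 2 DMSO and 2 AMLE libraries of 100000 cells each, cut with transposase for 30 min at 37 °C, and RNA was sequenced in 3 libraries of each group. The labels state the DMSO share for the vehicle group only and do not tell whether each replicate is its own mouse or culture; p-values therefore measure the spread between these libraries, which may be technical. Cultures of this kind hold other myeloid cells beside dendritic cells. All 9 dendritic cell markers were detected, with a summed RNA level of 5836 to 8250 CPM (counts scaled to a common library size) in DMSO and 6564 to 7238 in AMLE. The 11 neutrophil and precursor markers in the table summed to 13534 to 21527 CPM in DMSO and 8919 to 12513 in AMLE, the 12 macrophage markers to 1859 to 2181 and 1070 to 1811, and the 8 monocyte markers to 2478 to 2786 and 1416 to 2192. Eosinophil markers summed to 1331 to 2042 and 1850.5 to 2440 CPM, mast cell and basophil markers to 295 to 467 and 438 to 854, lymphocyte markers to 19.3 to 28.3 and 22 to 33.1, and erythroid and stromal markers to 21.8 to 34 and 37.4 to 93.2, the haemoglobin genes Hbb-bs and Hba-a1 being at 0 in every library.

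ATAC-seq reads out where transposase can reach DNA between nucleosomes, mostly at promoters, where transcription starts, and at distal elements such as enhancers. Promoters of widely used genes tend to be rich in CpG dinucleotides and open in most cell types, whereas distal elements are more often open in particular cell types or states. A peak is called where insertions exceed the local background by a set significance, so a weak site near that level can be called in a library and missed in its replicate. In dendritic cells, lineage factors such as PU.1 and IRF8 and signal-dependent factors such as NF-kB and AP-1 bind many distal elements near genes of maturation.

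The promoter windows of 6 genes whose start lay in a one-library region and whose RNA changed are shown. Only the start had to lie in the region, so a window can reach past the region's edge. Each is the 250 bases before the listed start, 5′ to 3′ on the gene's strand, from RefSeq on build GRCm38.p6, and capitals mark matches, on either strand, to the motifs named below. The first 3 lie before genes that fell and the last 3 before genes that rose. C1qc lies on the minus strand at chr4:136892915-136893164, C1qb on the minus strand at chr4:136886201-136886450, Mcm10 on the minus strand at chr2:5012792-5013041, Wbscr27 on the plus strand at chr5:134932274-134932523, Adam19 on the plus strand at chr11:46055734-46055983, and Tmtc2 on the minus strand at chr10:105574480-105574729.
C1qc: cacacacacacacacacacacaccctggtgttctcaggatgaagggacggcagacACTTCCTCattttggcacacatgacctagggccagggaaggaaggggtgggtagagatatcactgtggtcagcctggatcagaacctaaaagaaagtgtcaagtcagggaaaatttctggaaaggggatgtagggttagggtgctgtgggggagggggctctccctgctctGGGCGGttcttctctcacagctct
C1qb: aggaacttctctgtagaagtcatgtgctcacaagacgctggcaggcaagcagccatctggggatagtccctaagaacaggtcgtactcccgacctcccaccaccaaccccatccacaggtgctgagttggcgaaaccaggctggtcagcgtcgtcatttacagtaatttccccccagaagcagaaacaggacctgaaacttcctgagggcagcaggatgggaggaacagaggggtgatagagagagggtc
Mcm10: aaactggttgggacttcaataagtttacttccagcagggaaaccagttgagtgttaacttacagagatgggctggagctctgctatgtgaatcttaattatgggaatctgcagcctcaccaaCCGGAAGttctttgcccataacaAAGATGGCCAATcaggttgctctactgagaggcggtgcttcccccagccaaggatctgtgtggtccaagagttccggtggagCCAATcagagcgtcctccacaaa
Wbscr27: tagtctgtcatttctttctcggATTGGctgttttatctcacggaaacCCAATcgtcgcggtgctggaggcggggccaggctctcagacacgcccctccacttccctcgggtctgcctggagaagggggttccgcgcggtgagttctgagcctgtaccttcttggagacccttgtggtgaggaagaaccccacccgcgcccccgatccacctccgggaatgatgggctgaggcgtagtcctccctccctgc
Adam19: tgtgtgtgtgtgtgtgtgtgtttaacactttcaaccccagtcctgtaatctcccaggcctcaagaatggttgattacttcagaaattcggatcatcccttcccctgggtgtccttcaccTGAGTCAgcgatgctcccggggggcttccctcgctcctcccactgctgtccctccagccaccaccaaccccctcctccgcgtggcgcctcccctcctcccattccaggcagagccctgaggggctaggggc
Tmtc2: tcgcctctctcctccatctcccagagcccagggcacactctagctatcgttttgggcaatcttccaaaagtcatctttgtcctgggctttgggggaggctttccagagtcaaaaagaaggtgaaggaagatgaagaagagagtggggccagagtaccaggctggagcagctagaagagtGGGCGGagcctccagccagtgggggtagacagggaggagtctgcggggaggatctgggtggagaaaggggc
The C1qc window held the PU.1 motif GAGGAAGT, read on the other strand, and the GC box GGGCGG. None of the 13 searched motifs was found in the C1qb window, which says only that these letters are not in it. The Mcm10 window held the ETS motif CCGGAAG, 2 CCAAT boxes and the YY1 motif AAGATGGC, which overlaps the upstream CCAAT box. The Wbscr27 window held 2 CCAAT boxes, 1 on each strand, the Adam19 window the AP-1 motif TGAGTCA and the Tmtc2 window a GC box. The Adam19 region begins at chr11:46055954, so most of the Adam19 window, with its AP-1 motif, lies outside the region. The far end of the Mcm10 window also lies outside its region, but its marked motifs lie inside.

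One-library regions were weak in vehicle already. Peak strength is the best summit's fold enrichment over local background, the authors' own value for each peak. In DMSO replicate 1 the median fold of the one-library regions was 5.75 (quartiles 4.60 to 7.09), between 5.17 for vehicle-only and 9.36 for shared regions. The order was the same in DMSO replicate 2, with 6.12 (4.83 to 7.89), 5.29 and 10.8. Within the DMSO lists the one-library regions had a median percentile of 33.8 in replicate 1 and 33.2 in replicate 2, where shared regions stood at 66.4 and 67.5. In the extract library that kept them they were again in the lower part of the list: the median fold was 4.87 in AMLE replicate 1 (942 regions) and 4.76 in AMLE replicate 2 (1039 regions), against 8.51 and 8.66 for shared regions in the same lists.

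**Figure D1:**
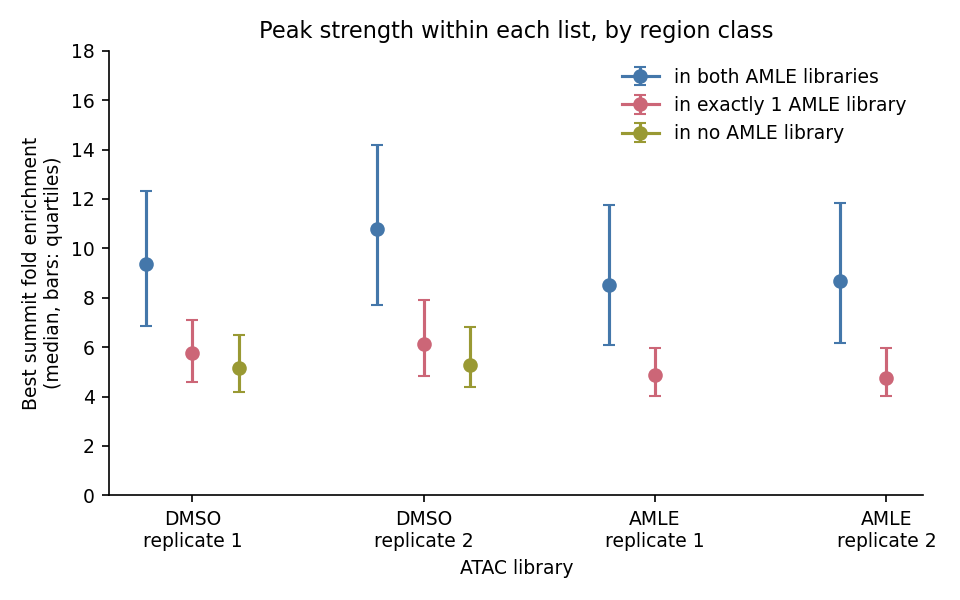
The vertical axis gives the best summit fold enrichment and the horizontal axis the ATAC library; points are medians and bars quartiles of the shared, one-library and vehicle-only regions. One-library medians (5.75, 6.12, 4.87 and 4.76) lie near the vehicle-only medians in DMSO and well under the shared medians in all 4 lists.

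How often a vehicle region was kept in exactly 1 extract library followed its strength in vehicle. Of the 15474 regions with a peak in both DMSO libraries, 77.8% were kept in both AMLE libraries, 12.8% (95% exact binomial interval 12.3 to 13.3, counting error only) in 1 and 9.44% in none. When these regions were ranked by the lower of their DMSO folds and cut into 10 bins of equal size, one-library regions made up 29.8% of bin 1, the weakest (fold 1.64 to 4.11), 23.4% of bin 3, 13.1% of bin 5 and 5.75% of bin 7. In bin 10, the strongest (fold 14.1 to 19.9), 4 of 1548 regions (0.258%) were one-library and 0 were vehicle-only. In bin 1 vehicle-only regions were the more frequent of the pair (32.6% against 29.8%), and from bin 2 on one-library regions were.

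**Figure D2:**
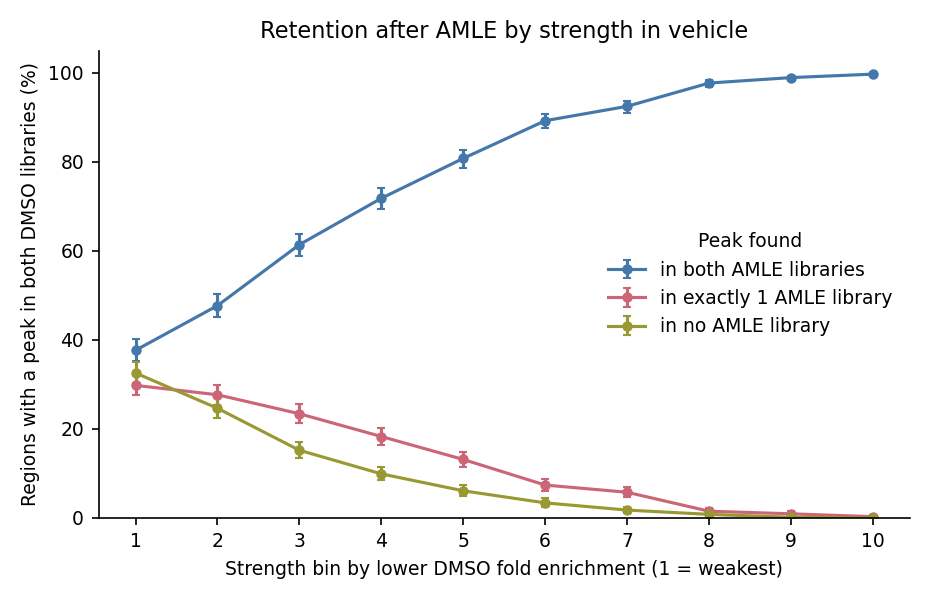
The vertical axis gives the percent of regions with a peak in both DMSO libraries and the horizontal axis the bin by the lower DMSO fold; lines give the regions kept in both, exactly 1 or no AMLE library, with 95% exact binomial intervals. The one-library share falls from 29.8% in the weakest bin to 0.258% in the strongest, and the share kept in both rises from 37.7% to 99.7%.

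The AMLE replicates divided the one-library regions almost evenly. Replicate 1 kept 47.6% (45.3 to 49.8) and replicate 2 kept 52.4%. Replicate lists did not fully coincide within the vehicle either: 84.4% of the regions with a peak in DMSO replicate 1 had one in DMSO replicate 2, and 81.1% the other way round, while 81.0% of the AMLE replicate 1 regions had a peak in AMLE replicate 2 and 81.8% the other way round. DMSO lists were longer (18460 and 19225 distinct intervals) than AMLE lists (15805 and 15597). The reverse class, found in both AMLE libraries and exactly 1 DMSO library, was smaller, with 554 regions or 4.36% (4.01 to 4.73) of the 12700 regions with a peak in both AMLE libraries. It also sat low in the lists, at median percentiles of 23.7 and 22.7 in the AMLE libraries, and in the weakest of 10 bins of the regions with a peak in both AMLE libraries it made up 20.2%. The number of sequenced reads per ATAC library was not analysed here, and its part in the list lengths was not tested.

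The extract peaks of one-library regions ranged from the caller's threshold to clear peaks. All 4 lists end at a −log10 q of about 1.3, which is the level that decides membership. The weakest AMLE peaks among members stood at 1.31 in replicate 1 and at 1.3 to 1.32 in replicate 2, and just outside the rule the weakest second AMLE peaks of shared regions stood at 1.3 to 1.31. The median −log10 q of the kept peak was 4.71 in replicate 1 and 4.47 in replicate 2. A kept peak under 2 was found in 92 (9.77%) and 118 (11.4%) regions, and one of at least 10 in 129 (13.7%) and 120 (11.5%). The weaker AMLE peak was under 2 in 315 (2.62%) of the shared regions. The AMLE library that lacked the peak had another peak within 500 bp in 19 of 942 and 15 of 1039 regions, and its nearest peak lay at a median distance of 17.2 and 17.4 kb. In the authors' consensus lists, 1974 of the 1981 regions overlapped a vehicle interval and 0 an extract interval. The membership rule largely sets this outcome, so it is no separate support for the class.

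One-library regions were also intermediate in width. The median width was 519 bp (quartiles 414 to 645), against 745 bp for shared and 427 bp for vehicle-only regions, and 9.64%, 28.6% and 3.77% of the regions held an interval with several summits. Widths of regions built from more libraries are larger by construction, but the intervals of single libraries were ordered alike, with medians of 411, 616 and 366 bp in DMSO replicate 1 and 372, 611 and 316 bp in DMSO replicate 2. Merged widths within each of bins 1 to 7 by DMSO fold were in this order too. The median width of one-library regions stayed between 476 and 537 bp, while shared regions stood at 678 to 754 bp and vehicle-only regions at 369 to 447 bp. The bins do not remove the part of this order that is set by construction, and intervals of single libraries were not compared within bins. The widest one-library region, chr3:137946753-137948369 (1617 bp), lay in a gene body 18 kb from one end of Lamtor3, a subunit of the Ragulator complex on lysosomes; "one end" marks genes for which both ends, not a listed start, were used. Its fold was low in the 3 libraries that held it, at 4.31 and 5.14 in DMSO and 5.02 in AMLE replicate 2. Lamtor3 RNA was lower in AMLE (log2 change -0.235, edgeR adjusted p = 0.032). It did not pass when any RNA library except AMLE replicate 3 was left out (edgeR adjusted p = 0.061 to 0.094).

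Most one-library regions lay away from gene starts. For genes with no listed start, either end counted as a start, here and in the later counts of genes at starts. A gene start stood within 1 kb of 521 of them (26.3%, 24.4 to 28.3), against 64.3% of shared, 15.7% of vehicle-only and 42.8% of the reverse-class regions. Another 804 (40.6%) lay elsewhere in a gene, 653 (33.0%) outside genes and 3 on sequences that carry none of the genes used. Of the 1457 regions beyond 1 kb, 440 were 1 to 10 kb, 895 were 10 to 100 kb and 122 were over 100 kb from the nearest start, with a median of 19.4 kb (16.8 for shared and 22.8 for vehicle-only regions). Read the other way, 6.14% of the 8488 vehicle regions at a start were kept in 1 extract library, but 21.9% of the 3679 in gene bodies and 19.8% of the 3290 outside genes.

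**Figure D3:**
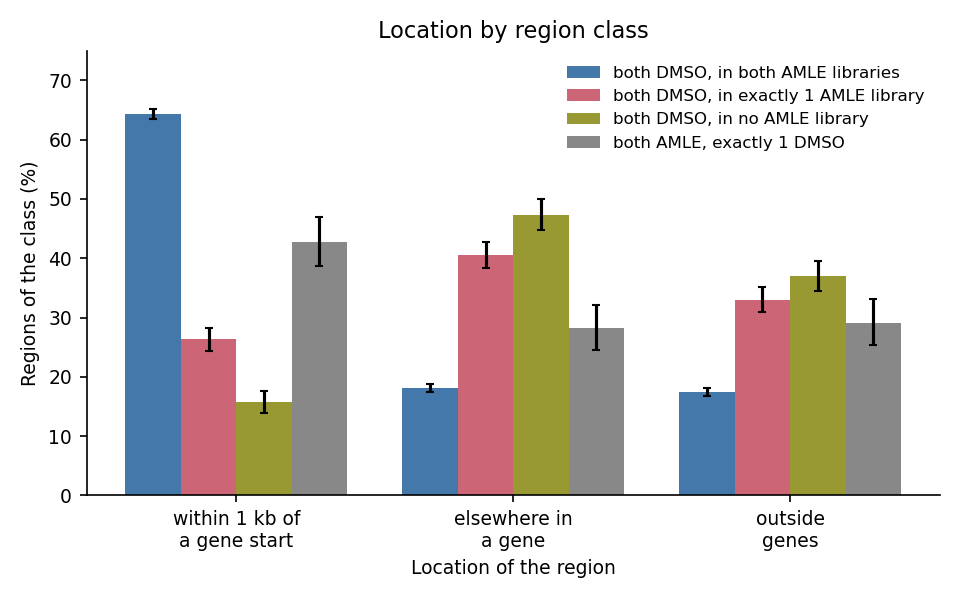
Bars give the percent of each region class (vertical axis) by location (horizontal axis), with 95% exact binomial intervals. One-library regions (26.3% at a start) lie between shared (64.3%) and vehicle-only regions (15.7%).

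At matched strength one-library regions still lay between the other classes. In each of bins 1 to 9 by DMSO fold their share at a start was above that of vehicle-only and below that of shared regions, though bins 8 and 9 held few regions. The one-library share itself was 20.2% to 28.9% in bins 1 to 6, and then 55.1% of 89 regions in bin 7, 56.5% of 23 in bin 8 and 57.1% of 14 in bin 9. In bin 1, 25.6% of 461 one-library regions were at a start, against 42.2% of 583 shared and 14.9% of 504 vehicle-only regions. In bin 5 the shares were 26.1% of 203, 54.2% of 1250 and 16.0% of 94. Within bin 1, 26.9% of the 439 regions at a start and 30.9% of the 1109 others were kept in 1 library, while 56.0% and 30.4% were kept in both. In bin 5 the one-library share was 7.11% at starts and 18.7% elsewhere. One-library regions had median widths of 515 bp at starts, 522 bp in gene bodies and 521 bp outside genes. Their median folds at these places were 5.90, 5.67 and 5.75 in DMSO replicate 1 and 6.67, 5.85 and 6.00 in DMSO replicate 2, where those of shared regions were 10.5, 7.60 and 7.91 and 12.3, 8.27 and 8.66. By chromosome, the one-library share of vehicle regions ran from 10.5% (8.43 to 12.9) on chromosome 17 to 16.0% (13.6 to 18.8) on chromosome 6, and was 13.2% on X.

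A few one-library regions were as strong in vehicle as the upper part of the shared class. The strongest, chr11:120189857-120190240 next to the start of 2810410L24Rik, had folds of 17.7 and 16.6 in DMSO and 7.25 in AMLE replicate 1. The gene itself had 54 counts over all 6 RNA libraries and was not tested. At chr15:41612301-41612585, in a gene body and 165 kb from one end of Oxr1, which protects cells from oxidative damage, the DMSO folds were 15.7 and 15.1 and the AMLE replicate 1 fold 7.79. At chr17:28801552-28801962, 426 bp from the start of Brpf3, a scaffold of histone acetyltransferase complexes, the folds were 14.4 and 14.5 in DMSO and 11.1 in AMLE replicate 1, whose −log10 q of 40.9 was the highest AMLE value among the regions kept in replicate 1. These 3 regions have clear peaks in 1 extract library and none in the other. At the start of Blvra, biliverdin reductase, chr2:127070263-127070855 had 13.3 and 13.5 in DMSO and 8.27 in AMLE replicate 1, and Blvra RNA fell from 35.1, 35.2 and 43.9 CPM to 21.9, 20.8 and 27.5 (edgeR adjusted p = 0.0048). Oxr1 RNA also fell (log2 change -0.359, edgeR adjusted p = 0.0035), and Brpf3 RNA did not pass the test (edgeR adjusted p = 0.20).

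The strongest regions kept in AMLE replicate 2 were all away from starts. At chr11:85003576-85003867, 45.8 kb from the start of the carbonic anhydrase gene Car4, the DMSO folds were 14.6 and 17.1 and the AMLE replicate 2 fold 9.50. At chr8:34904107-34904396, 61.3 kb from one end of the tankyrase gene Tnks, they were 14.0, 15.9 and 7.34. At chr11:96861843-96862245, 12.0 kb from the start of Copz2, a coat protein subunit of Golgi vesicles, they were 14.0, 14.9 and 11.4. The RNA of these 3 genes did not pass the test (edgeR adjusted p = 0.15, 0.087 and 0.088), though with the replicate number as a block Car4 (0.00073) and Copz2 (0.041) were called higher. The region at chr5:90742015-90742407, 16.9 kb from one end of the neutrophil chemokine gene Cxcl5, had 13.6 and 13.4 in DMSO and 8.59 in AMLE replicate 2. Cxcl5 RNA was scarce, at 0.254, 0.281 and 0.276 CPM in DMSO and 1.67, 0.904 and 1.45 in AMLE, and rose 4.85-fold (edgeR adjusted p = 0.0013), while its region was missing from AMLE replicate 1.

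RNA came from libraries that the region rule did not use, and was tested over all genes. Of 13075 genes tested, 23% were called higher and 25.6% lower in AMLE (48.6% in all), with 5.52% and 4.4% at least 2-fold higher and lower, and the groups of 3 libraries did not overlap for 59.7%. A one-library region lay within 1 kb of a start of 549 genes, of which 505 passed the low-count filter. Of these, 115 (22.8%) were higher and 142 (28.1%) lower, 32 and 30 of them at least 2-fold, and the median log2 change was 0.0044 (-0.0050 over all genes). These shares are close to the background. Genes at shared regions had 20.8% higher and 29.3% lower of 8516, and genes at vehicle-only regions 27.0% and 27.9% of 222. The shares did not part by the library that kept the region: 21.6% higher and 25.9% lower for replicate 1, 23.8% and 30.2% for replicate 2. Of the 549 genes, 57 had a shared region at a start as well, and 490 had neither a shared nor a vehicle-only region there.

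Genes whose start was the nearest to a one-library region 1 to 100 kb away were more often higher. Of 1200 such genes 979 were tested, and 315 (32.2%) were higher and 224 (22.9%) lower, with a median log2 change of 0.07. The same held for genes nearest a shared distal region, with 29.9% higher and 21.6% lower of 2371, and for those nearest a vehicle-only distal region, with 29.1% and 22.4% of 829, so the higher share belongs to distal regions of all 3 classes and the differences between the classes were not tested. A shared region stood at a start of 633 (52.8%) of the 1200 genes. Leaving out each RNA library in turn gave 92 to 123 higher and 112 to 148 lower genes at starts, and 2263 to 3308 higher and 2666 to 3475 lower over all genes. AMLE replicate 3 was the AMLE library nearest the DMSO mean for 132 (51.4%) of the 257 genes called at starts, as it was for 48.2% of all 6350 called genes. Among the 33 called genes that are named below by rule, it was nearest for 25 (75.8%). Without it 123 (24.1%) were higher and 148 (29.0%) lower at starts, against 24.9% and 26.2% of all tested genes.

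**Figure D4:**
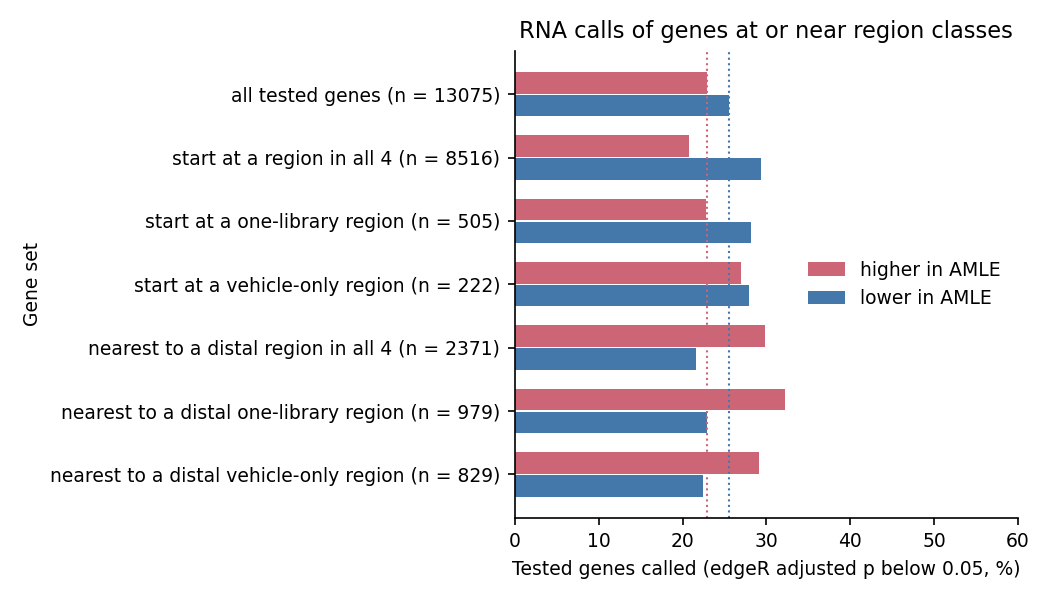
Horizontal bars give the percent of tested genes called higher or lower in AMLE (edgeR adjusted p below 0.05) for each gene set on the vertical axis; dotted lines mark all tested genes (23% and 25.6%). Genes at one-library starts (22.8% and 28.1%) lie near the lines, and genes nearest a distal region of any class lie to the right of the line for higher genes (32.2% for one-library regions).

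The complement genes C1qc and C1qb had the largest falls among genes with a one-library region at a start. They encode chains of C1q, the recognition part of the classical complement pathway, made mostly by macrophages and immature dendritic cells. C1qc stood at 36.6, 53.5 and 81.5 CPM in DMSO and 1.86, 1.34 and 4.28 in AMLE, 23.5-fold lower (log2 change -4.55 ± 0.46, SE; edgeR adjusted p = 0.00041), and C1qb at 67.2, 95.2 and 155 against 2.87, 2.60 and 8.60, 23-fold lower (-4.52 ± 0.52; edgeR adjusted p = 0.00065). The groups lay far apart for both genes. Their regions, close together on chromosome 4, were kept in different extract libraries: the C1qc region chr4:136892881-136893330 had folds of 5.05 and 7.25 in DMSO and 6.72 in AMLE replicate 1, and the C1qb region chr4:136886001-136886562 had 3.27 and 6.58 in DMSO and 6.18 in AMLE replicate 2. Each was the only region nearest its gene. Over the macrophage list 7 of 12 markers fell and 2 rose, and the part of a shift in cell types in these falls was not tested; in bulk RNA, fewer cells of a type and less RNA per cell cannot be told apart.

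The next largest falls at starts were in Shcbp1, Mcm10, Aurkb and Spag5, of which Aurkb is in the cell cycle list. Mcm10, needed to start DNA replication, stood at 36.2, 36.7 and 37.1 CPM in DMSO and 7.18, 6.89 and 10.3 in AMLE (4.54-fold lower; edgeR adjusted p = 8.65e-05). Its region, chr2:5012514-5012968, was among the stronger members, with folds of 12.9, 12.5 and 10.6 in DMSO replicates 1 and 2 and AMLE replicate 2. Aurkb, the Aurora B kinase of mitosis, fell 4.43-fold, Spag5, a spindle protein, 4.35-fold and Shcbp1, an adaptor active in dividing cells, 4.92-fold. The groups did not overlap in these 4 genes, which was a condition for naming them. The regions at Spag5 (7.72, 10.6 and 8.94), Shcbp1 (7.43, 11.5 and 4.02) and Aurkb (4.58, 6.33 and 2.95) were all kept in AMLE replicate 2 and those at Aurkb and Shcbp1 lay at one end of the gene. Over the cell cycle list 27 of 32 genes fell and 3 rose. Its one other gene near a one-library region was the cyclin D1 gene Ccnd1, with the region 90.8 kb from one end. Ccnd1 fell from 46.9, 47.0 and 64.5 CPM to 13.7, 9.45 and 13.1 (4.39-fold, edgeR adjusted p = 0.00022).

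The largest rises at starts were in genes of varied function. Azin2, an antizyme inhibitor of polyamine metabolism, rose 5.37-fold, from 3.24, 3.76 and 2.79 CPM to 19.8, 25.3 and 7.22 (edgeR adjusted p = 0.0046), and had 2 one-library regions, at one end and 4.9 kb inside, both kept in AMLE replicate 1. Wbscr27, which encodes a methyltransferase-like protein, rose 4.59-fold (5.56, 5.69 and 4.86 CPM against 26.9, 31.4 and 15.4; edgeR adjusted p = 0.00076), and its region, chr5:134932225-134932691, had folds of 6.75 and 7.69 in DMSO and 5.24 in AMLE replicate 1. Adam19, a membrane metalloprotease, rose 3.22-fold from 55.7, 61.2 and 51.1 CPM to 177, 236 and 128 (edgeR adjusted p = 0.00092). AMLE replicate 3 was the lowest of the AMLE libraries in all 3 genes, and non-overlap of the groups was a condition for naming these genes. Tmtc2, a membrane protein of the endoplasmic reticulum, rose 3.13-fold with a region of 1166 bp whose folds were 3.61 and 9.42 in DMSO and 4.33 in AMLE replicate 2. Rgs1, which dampens chemokine receptor signalling, rose 3.00-fold (16.7, 18.9 and 20.1 CPM against 52.8, 68.7 and 44.9), and Nckap1, a subunit of the WAVE complex that drives actin branching, rose 2.82-fold. Nckap1 had a one-library region at one end, kept in AMLE replicate 1, and another 23.7 kb away, kept in replicate 2. The RNA of these 6 genes rose, while each had a region at a start, or for Azin2, Rgs1 and Nckap1 at one end, that was called in 1 extract library only. Adam19 had a shared region at a start as well, and the other 5 genes had none there.

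The largest rises near distal one-library regions were in Il1a, Irf8, Fscn1 and St8sia1. Il1a, the cytokine interleukin-1 alpha, rose 3.97-fold from 10.6, 15.7 and 11.9 CPM to 59.5, 43.9 and 48.4 (edgeR adjusted p = 0.00022), with a region 28.2 kb from its start at folds of 8.38, 10.1 and, in AMLE replicate 1, 5.35. Irf8, a transcription factor that directs dendritic cell development, rose 3.69-fold from 202, 218 and 235 CPM to 801, 906 and 704 (edgeR adjusted p = 4.6e-05), with a region 16.1 kb away at 6.29, 5.33 and, in AMLE replicate 2, 5.43. Fscn1, the actin-bundling protein fascin of mature dendritic cells, rose 3.66-fold to 1921, 2211 and 1616 CPM from 491, 545 and 533 (edgeR adjusted p = 6.8e-05), with a region 14.3 kb away. The groups did not overlap in these 3 genes, which was a condition for naming them. Irf8 was the nearest gene of 8 regions within 100 kb, of which 1 was shared, 1 one-library and 1 vehicle-only, and Il1a and Fscn1 each had 1 shared region among 3 and 5. St8sia1, the synthase of ganglioside GD3, rose 3.52-fold (5.37, 5.20 and 4.68 CPM against 19.0, 28.2 and 6.19; edgeR adjusted p = 0.021), and this call was lost when any library but AMLE replicate 3 was left out (adjusted p = 0.056 to 0.066), with limma-voom (0.081) and without the low-count filter (0.077).

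The largest falls near distal one-library regions were in Slamf9, Kif2c, Ccnd1 and Ccdc80. Slamf9, a receptor of the SLAM family, stood at 21.9, 19.8 and 34.9 CPM in DMSO and 2.56, 2.83 and 5.50 in AMLE (7.08-fold lower; edgeR adjusted p = 0.00078), and the one region whose nearest gene it was, a one-library region, lay 18.9 kb away (6.06, 8.50 and 5.88 in AMLE replicate 1). Kif2c, a kinesin that takes microtubules apart in mitosis, fell 4.73-fold, with a region 31.7 kb away and 3 shared regions beside it. Ccdc80, a secreted matrix protein, fell 4.31-fold from 63.7, 77.5 and 107 CPM to 14.1, 14.1 and 29.6. All 4 regions were kept in AMLE replicate 1, and non-overlap of the groups was again a condition for naming the 4 genes.

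**Figure D5:**
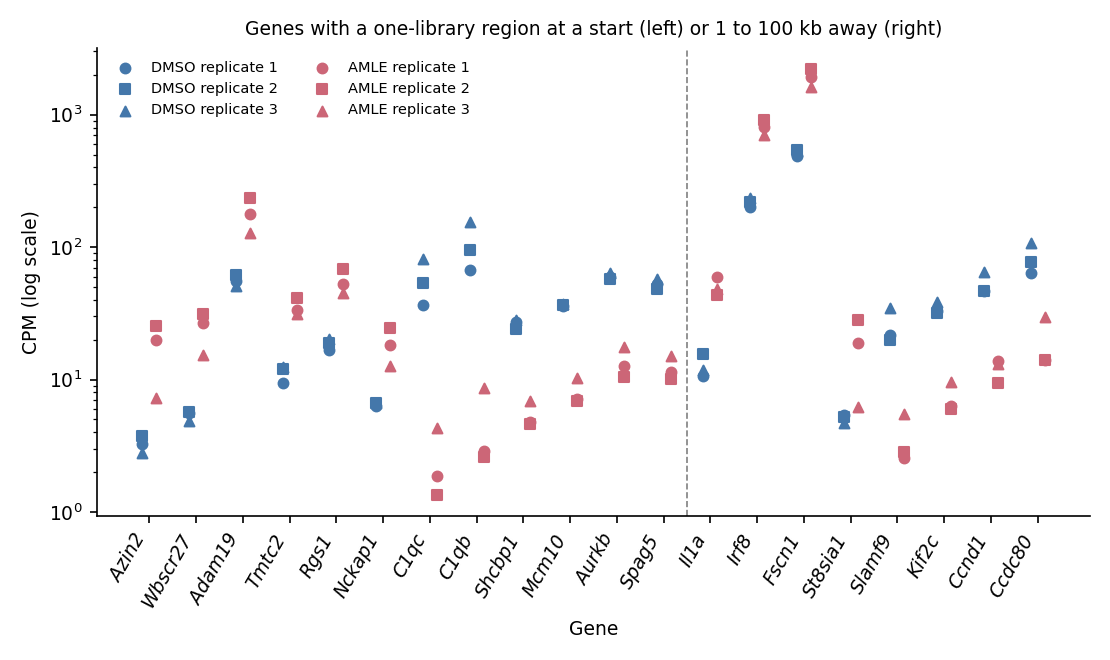
The vertical axis gives CPM on a log scale and the horizontal axis the genes with the largest called rises and falls, at a start (left of the dashed line) or 1 to 100 kb from a one-library region (right); symbols are the 3 DMSO and 3 AMLE RNA libraries. C1qc (36.6 to 81.5 CPM in DMSO, 1.34 to 4.28 in AMLE) shows the widest gap, and AMLE replicate 3 often lies nearest to DMSO.

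Over 27 gene lists, 19 of pathways and 8 of cell type markers, 24 genes had a one-library region at a start and 67 others had a distal one only. Genes such as Ikbkb and Il10, with the region at or near one end, were counted as having it at a start. Of the 23 tested genes with a region at a start 9 were higher and 4 lower, and of the 66 tested genes with a distal region 36 were higher and 5 lower, where 197 of all 472 tested genes of the lists were higher and 113 lower. With the replicate number as a block the genes with a distal region numbered 42 higher and 8 lower. In the NF-kB list all 6 tested genes with a one-library region rose, as did 19 of 23 in the list as a whole: Ikbkb, a kinase that frees NF-kB, had its region at one end of the gene and rose 1.3-fold, and the inhibitor gene Nfkbia, with a region 18.3 kb away at 7.04, 10.6 and 6.06 in AMLE replicate 1, rose from 305, 337 and 311 CPM to 533, 542 and 505 (1.66-fold; edgeR adjusted p = 0.00014). The others were Nfkb1, Nfkbie, Tnfaip3 and Tnip1. The Nfkbie call (edgeR adjusted p = 0.022) was lost without AMLE replicate 1 (0.058) or DMSO replicate 1 (0.060). The Tnip1 call (0.027) was lost without AMLE replicate 1 or any 1 DMSO library (0.060 to 0.084), so that 4 of the 6 genes rose without AMLE replicate 1 or DMSO replicate 1. In the cytokine list all 6 tested genes with a region rose (12 of 19 in the list), namely Il1a, Il1b, Il12b, Il1rn, Lif and Csf1. Il10, an anti-inflammatory cytokine with a region 860 bp from one end, had 14 counts over all 6 libraries and was not tested.

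In the co-stimulation list, where 1 gene had its region at a start and 6 had distal ones only, 5 of 6 tested genes with a region rose, and 19 of 21 in the list. The sixth, Tnfsf9, did not pass (edgeR adjusted p = 0.10), but did with the replicate number as a block (0.017) and without AMLE replicate 2 (0.024). Cd86, a ligand that co-stimulates T cells, had the region chr16:36665818-36666127, 31 bp from one end of the gene, with folds of 8.14 and 8.38 in DMSO and 5.83 in AMLE replicate 1, and its RNA rose 2.73-fold from 103, 115 and 101 CPM to 302, 369 and 196 (edgeR adjusted p = 0.0018). Il1b, interleukin-1 beta, had a weak region at its start (4.24, 3.57 and 3.56 in AMLE replicate 1) and rose 1.97-fold from 102, 112 and 96.2 CPM to 203, 177 and 230. Both genes were higher in every AMLE library than in any DMSO library. In the chemokine list 3 of 6 rose (11 of 20 in the list): Ccl5, which attracts T cells, rose 2.13-fold with a region at one end of the gene (4.54, 4.15 and 4.80 in AMLE replicate 2), Ccl4 rose 2.18-fold and Cxcr4, the receptor of Cxcl12, rose with a region 43.1 kb away. Ccl2, a monocyte chemokine, had one of the stronger listed regions (7.77, 10.4 and 6.25 in AMLE replicate 1) and RNA of 21.4, 27.1 and 11.6 CPM against 15.9, 14.1 and 8.44, which overlapped and did not pass (edgeR adjusted p = 0.16). With the replicate number as a block Ccl2 was called lower (0.0028), the AMLE library being the lower one in each same-numbered pair, and it was also called without DMSO replicate 3 (0.034). In the interferon list 4 of 5 rose (21 of 30): Irf7, Ifih1, Zbp1 and Gbp5, the last from a family of similar genes whose reads may be shared.

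Among the other lists some were one-sided too and some were mixed. All 3 stress and apoptosis genes with a one-library region rose (11 rose and 5 fell of 20 in the list). Of 4 chromatin regulators 3 rose and 0 fell (8 and 10 of 26), and of 5 actin and migration genes 3 rose and 0 fell (4 and 6 of 24). Of these risers, Bcl2l1, Dnmt3a, Kdm6b and Actb each lost the call when some single RNA library was left out. Of the 6 dendritic cell regulators with a one-library region, Irf8, Batf3 and Id2 rose, Klf4 fell, and Bcl6 (edgeR adjusted p = 0.58) and Zeb2 (0.25) did not pass. In the list as a whole 11 of 20 rose and 4 fell. Batf3, a factor of cross-presenting dendritic cells, rose 2.42-fold, from 32.7, 38.5 and 30.1 CPM to 85.8, 104 and 54.8, with a weak region 25.5 kb away (3.18, 3.79 and 4.98 in AMLE replicate 1). In pattern recognition 1 of 8 rose and 2 fell, against 4 and 8 of 30 in the list: Tlr9, Tlr13, Nod2 and Clec4e, all with the region at the start and kept in AMLE replicate 2, did not pass, although Clec4e did without AMLE replicate 3 (edgeR adjusted p = 0.44; 0.0093 without it), where 4 of the 8 fell, and Tlr5, the flagellin receptor, with 2 regions kept in different AMLE libraries, fell from 1.91, 1.72 and 1.76 CPM to 1.24, 0.788 and 0.993 (edgeR adjusted p = 0.015; 0.054 without DMSO replicate 1). Nlrc5, an activator of MHC class I genes, rose 1.39-fold. Of the 7 lysosome and autophagy genes with a one-library region, Ctsk and Npc2 rose and Atg7 fell, against 7 and 4 of 25 in the list. For Ctsk, the protease cathepsin K, at 2.26, 2.11 and 4.24 CPM against 6.29, 4.64 and 9.74, the call (edgeR adjusted p = 0.026) was lost without AMLE replicate 1 (0.053), DMSO replicate 1 (0.087) or DMSO replicate 2 (0.084). With the replicate number as a block Atp6v0d2 (edgeR adjusted p = 0.063; 0.00050 with the block) and Mitf (0.15; 0.026) also rose, 4 of the 7. None of the 4 glycolysis and hypoxia genes with a region passed (11 of 21 in the list rose), but Hk2, hexokinase 2, was called higher with the block (0.088; 0.033 with it), and no gene of the NRF2 and aryl hydrocarbon receptor list had a one-library region. Further called genes included Arid1b, a chromatin remodeller subunit with a shared region at a start too (1.29-fold higher), and the protease gene Lgmn (1.47-fold higher). Lgmn is in the MHC class II list, where 2 of 14 genes rose and 5 fell. The other gene of that list with a one-library region, H2-Aa, did not pass (edgeR adjusted p = 0.12), but was called lower with the block (0.0011).

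Most genes had a lone one-library region. Counting only regions within 100 kb, 1505 genes were nearest to 1 such region, 149 to 2, 15 to 3 and 2 to 4. The latter were Btg1, which restrains cell division, and Jazf1, a zinc finger gene. The 4 Btg1 regions lay 11.5 to 73.4 kb from its start, 1 kept in AMLE replicate 1 and 3 in replicate 2, beside 3 shared regions and 1 vehicle-only region, and Btg1 RNA rose 1.54-fold (540, 577 and 612 CPM against 811, 884 and 972; edgeR adjusted p = 0.00092). The 4 Jazf1 regions lay inside a gene body 3.8 to 83.5 kb from a start, 2 kept in each AMLE library, with no shared region nearest to the gene, and Jazf1 RNA rose 1.47-fold from 10.9, 9.51 and 9.85 CPM to 14.3, 17.1 and 13.1 (edgeR adjusted p = 0.0063). Ado, a thiol dioxygenase gene, had 3 regions 61.8 to 99.0 kb away, and its RNA of 56.4, 55.0 and 60.8 CPM against 50.9, 51.2 and 54.3 did not pass (edgeR adjusted p = 0.08; 0.042 with the replicate number as a block).

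Promoters with a start inside one-library regions were intermediate in median GC content too, though their windows can reach past the region. A listed start lay inside a one-library region for 454 promoter windows of 421 genes, out of 32851 windows of 27025 genes. Over the 250 bases before the start their median GC content was 57.2%, against 62.0% for shared, 53.8% for vehicle-only and 52.4% for all windows. A CpG observed-to-expected ratio of at least 0.6 was found in 53.5% of them, in 80.7% of shared, 51.3% of vehicle-only and 34% of all windows. On this ratio one-library windows thus stood close to the vehicle-only windows, of which there were only 158. The 6 printed windows were mostly poorer in CpG, with 2 CpG in C1qc, 4 in Mcm10 and Tmtc2, 6 in C1qb, 7 in Adam19 and 16 in Wbscr27, where the median one-library window had 12.

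Short motifs were counted in the same windows. The GC box GGGCGG, bound by SP factors, was in 51.1% of the one-library, 65.9% of the shared, 39.9% of the vehicle-only and 32.7% of all windows, and the ETS motif CCGGAAG in 11.5%, 17.6%, 9.49% and 6.91%. CCAAT was about as frequent in every class (35.2%, 37.6%, 34.8% and 33.8%). The PU.1 motif GAGGAAGT, that of a myeloid ETS factor, was in 4.19% of the one-library windows, 2.81% of shared, 3.16% of vehicle-only and 2.44% of all. The AP-1 motif, TGAGTCA or TGACTCA, was in 4.63%, 2.49%, 3.16% and 4.46%, and TATAAA in 8.37%, 4.71%, 5.70% and 12.4%. Both strands were searched, and the ETS and PU.1 motifs can share bases. The NF-kB motif was found in 4 of the 454 windows, an interferon response motif in 16, the E-box CACGTG in 43, the CRE TGACGTCA in 9, the NRF1 motif in 6, AAGATGGC in 9 and the CEBP motif TTGCGCAA in 0. These are counts of letters, and the few windows per motif leave the smaller shares with wide counting error.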

How the data were processed

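For each ATAC-seq library the authors deposited a list of peak summits, each with its fold over the local background and its −log10 q, and for each group a consensus list; intervals with several summits were counted once. For RNA-seq, the authors deposited raw read counts per gene symbol from stranded poly(A) libraries, 26010455 to 34208286 counts per library. MACS3 3.0.0a7, Bowtie2 2.4.4, STAR 2.7.11b, Trim Galore 0.6.7 and the build mm10 are named, without roles, in the submitters' processing notes. The peak settings, counting tool and strand setting were not given in the sources used here. Overlapping or near-identical genes could thus share reads.

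Of 24385 symbols, 24243 matched RefSeq tables of GRCm38.p6, 1049 of them by an older symbol. Regions were placed against 22546 protein-coding or lncRNA genes, 18077 by listed starts and 4469 by both gene ends, since those genes have no listed start in the table and no strand; these are described by "one end". RNA was tested with edgeR 4.0.16 in R 4.3.3 (TMM, filterByExpr with a minimum count of 10, robust quasi-likelihood F test, two-sided, Benjamini-Hochberg over 13075 genes, called below 0.05), after a test on simulated data. Standard errors were derived from the F statistic. Replicate numbers may pair the RNA libraries: deviations from the group means correlated at 0.29, 0.28 and 0.43 for the 3 same-numbered pairs. The other pairs ran from -0.31 to 0.11, and the labels do not say what the numbers mean. The fit without the block is reported, and the blocked value stands beside a named gene or count only where it changes the call or moves the count by over 1.5 times. Intervals on shares are exact binomial at 95% and cover counting error only. Per-sample columns left unused numbered 0.

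The regions, the 27 gene lists and the rules were chosen with earlier results of these data known. Named regions were the 4 strongest per extract library by the lower DMSO fold, and the widest. Named genes were the 6 largest called rises and falls at starts and the 4 and 4 nearest to distal regions (mean CPM at least 10, groups not overlapping), the largest called change per list (mean CPM at least 1), and the 3 genes nearest to the most regions. Other listed genes near a region were named after their values were seen. Alternatives were other peak thresholds, overlaps and start windows, DESeq2 1.42.0, limma-voom 3.58.1, other size factors, no low-count filter, the replicate block and each library left out.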

Additional observations from a re-analysis of the deposited data

How the results depend on the processing

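The counts, shares and medians over regions and genes were recomputed under each alternative: 98 of these recomputed values stayed near the reported one (a count within 1.5 times, a share within its 95% interval, a median fold within the SD between the DMSO libraries) and 9 did not. The number of one-library regions ran from 1669 (peaks with a −log10 q of at least 5 only) to 2708 (without DMSO ATAC replicate 1). The percent at a gene start was 34.3 with peaks of at least 5, 36.3 with starts within 5 kb, 21.9 with the start inside the region and 21.2 with listed starts only, the latter chosen after seeing the data. The median DMSO fold was 7.12 with peaks of at least 5, and 5.40 to 5.73 when a DMSO ATAC library was left out. Genes at starts called higher numbered 174 of 715 within 5 kb, where 23% of all tested genes were called higher. At least 2-fold were 32 higher and 30 lower (6.34% and 5.94%), against 5.52% and 4.4% of all tested genes. With the replicate block 136 (26.9%) were higher and 161 (31.9%) lower at starts, and 357 (36.5%) and 268 (27.4%) near distal regions. Over all tested genes the block gave 26.3% higher and 29.2% lower. Recomputed under each alternative, the log2 changes of the genes named by rule kept their side of the threshold in 362 cases, lost the call in 11 (St8sia1, Tlr5 and Ctsk) and gained it in 1 (Ado, with the block). Over all 113 tested genes that were named by rule, nearest to a named region, or in a list with a one-library region, 13 lost a call under some alternative and 18 gained one; with the block 13 gained a call and 0 lost one. Of the genes not named above, Ezh2, Fos, Plac8 and Scd2 gained a call with the block. Clec4n, Elmo1, Il1rl1 and Itgb2 gained one when an AMLE RNA library was left out, and Cxcr2, Hdc and Nr4a1 lost one under some alternative. Leaving out each RNA library gave 28 to 38 higher list genes with a distal region. The cause of these changes was not tested. Leaving out an AMLE ATAC library was not run, since the rule needs both. The ATAC files give peaks past a threshold only, so signal below it in the library without a peak was not analysed here.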
